A study of Mus musculus with 15 samples.

Results

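The miRNA genes mir-23, mir-27 and mir-24 lie side by side in a pair of clusters of the mouse genome. The a cluster holds mir-23a, mir-27a and mir-24-2, and the b cluster holds mir-23b, mir-27b and mir-24-1. Members were all rows of the deposited counts whose name begins with mir-23a, mir-23b, mir-27a, mir-27b or mir-24, for both arms of the hairpin, which gave 10 of 1836 rows. No row named mir-27b was found in the deposited counts, so mir-27b was not analysed here. The counts come from small RNA sequencing of left ventricular (LV) tissue of 15 mice on a C57BL/6J background, littermates bred from heterozygous parents, and each mouse gave its own library. The study asked how loss of AGAT (arginine:glycine amidinotransferase, the enzyme that makes homoarginine and the precursor of creatine) and supplementation with homoarginine bear on miRNA levels of the heart. There were 5 wild-type (wt) mice and 5 mice without AGAT (AGAT-/-), all labelled as controls for treatment. A further 5 AGAT-/- mice received homoarginine from osmotic mini pumps for 4 weeks (AGAT-/-hArg). The age of the mice is not given in the sources used here. Since Gatm, the gene of AGAT, gives no miRNA, its loss could not be checked in these counts.

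Libraries held between 415608 and 486204 reads in wt mice, between 365634 and 557398 in AGAT-/- mice and between 389359 and 570492 in AGAT-/-hArg mice. Levels are given as CPM, reads relative to library size after TMM normalization over the 15 libraries, and 3 reads correspond to between 5.00 and 8.35 CPM of a library. This limit and the intervals given for shares of reads cover counting error only. Intervals of fold changes come from the fitted model and include the spread between mice. By their labels, every AGAT-/-hArg library ran on lane 2 and all others on lane 8. Effects of lane cannot be told apart from those of homoarginine, and they may also enter any difference of AGAT-/-hArg from wt mice.

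The members of each cluster are cut from a common primary transcript, and each hairpin can give a mature miRNA from its 5p and its 3p arm. A mature miRNA finds its targets mainly through its seed, bases 2 to 8, and the 3p arms are the ones commonly studied under the names miR-23, miR-27 and miR-24. MiR-23 and miR-27 are known for promoting the sprouting of blood vessels, miR-27 also for restraining fat cell formation, miR-23a for a role in muscle growth, and miR-24 for acting on survival of cardiac muscle cells and on endothelial cells.

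Mature sequences were taken from RefSeq (build GRCm38.p6) and matched by name for 9 of the 10 member rows, all but mir-23b-3p. The following sequences run from 5′ to 3′ with the seed in capitals. Values are given under the arm that the name of a row states. The authors mapped reads to mouse miRBase with the CLC Genomics Workbench and took the number of reads within mature miRNAs. How this assigned reads to arms is not given in the sources used here, and whether reads listed under a 5p name come from the 5p arm was not tested. First are the members listed with reads, by the sequence that goes with each name.
mir-24-2-5p: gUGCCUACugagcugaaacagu
mir-24-1-5p: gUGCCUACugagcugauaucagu
mir-27a-5p: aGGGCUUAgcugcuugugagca
mir-23b-5p: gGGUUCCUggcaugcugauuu

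The mir-24 rows of the 5p arm have the same seed and share their first 16 bases and their last 4, while those of mir-27a-5p and mir-23b-5p differ from it. The members listed at 0 in all 15 libraries are shown next, to set the names without reads beside those with reads.
mir-24-1-3p and mir-24-2-3p: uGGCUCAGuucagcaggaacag
mir-27a-3p: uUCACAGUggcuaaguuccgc
mir-23a-3p: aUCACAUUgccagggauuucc
mir-23a-5p: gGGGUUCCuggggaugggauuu

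Mir-24-1-3p and mir-24-2-3p have 1 and the same mature sequence, so reads of it could not be assigned to a cluster by sequence. Mir-24-2-5p lies at chr8:84208839-84208860 on the plus strand and mir-24-1-5p at chr13:63301213-63301235 on the plus strand. The hairpin of mir-24-2 at chr8:84208815-84208921 (GRCm38.p6, plus strand) is shown for the member row with the most reads, with the 5p arm of its name in capitals.
Mir24-2: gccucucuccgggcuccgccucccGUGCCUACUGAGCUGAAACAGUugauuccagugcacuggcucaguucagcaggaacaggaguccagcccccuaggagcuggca

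The a cluster spans 404 bases of chromosome 8, from 84208518 to 84208921. In the GENCODE M21 annotation its hairpins overlap no gene other than miRNAs, except that the last 2 bases of Mir24-2 reach into the exon of the long non-coding RNA Gm26532. The b cluster spans 792 bases of chromosome 13, from 63300484 to 63301275, inside the protein-coding gene 2010111I01Rik on the same strand and opposite an intron of Fancc. Mir23b lies in an intron of 2010111I01Rik, while Mir27b and Mir24-1 each overlap an exon of it.

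Only mir-24 held more than a few reads among the members. Of the 10 rows, 4 had at least 1 read and 6 were listed at 0 in all 15 libraries, including the 5 rows of 3p arms. Mir-24-2-5p had between 5977 and 10600 reads per library, 116578 in all, and mir-24-1-5p between 53 and 107, 1200 in all. Mir-23b-5p and mir-27a-5p had 18 reads each over the 15 libraries and at most 3 in any of them, so no fold is given for either.

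By mean CPM, mir-24-2-5p ranked 6 among the 1164 rows with reads, at 17108 ± 2094 CPM (SD, n = 15), and it ranked 6 or 7 in each single library. The row above it, mir-322-5p, was at 24966 ± 2172 CPM and exceeded it in 15 of 15 libraries. The row beneath it, mir-125b-2-3p, was at 13713 ± 1505 CPM and exceeded it in 0 of 15, so the place of mir-24-2-5p in this order was kept against both neighbours in every library. Mir-24-1-5p ranked 104 at 176 ± 19.9 CPM (SD, n = 15). Its neighbours in the order, mir-429-3p at 177 ± 48.2 CPM and mir-673-5p at 167 ± 34.2 CPM, each exceeded it in 7 of the 15 libraries and did not differ from it beyond their spread.

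**Figure D1:**
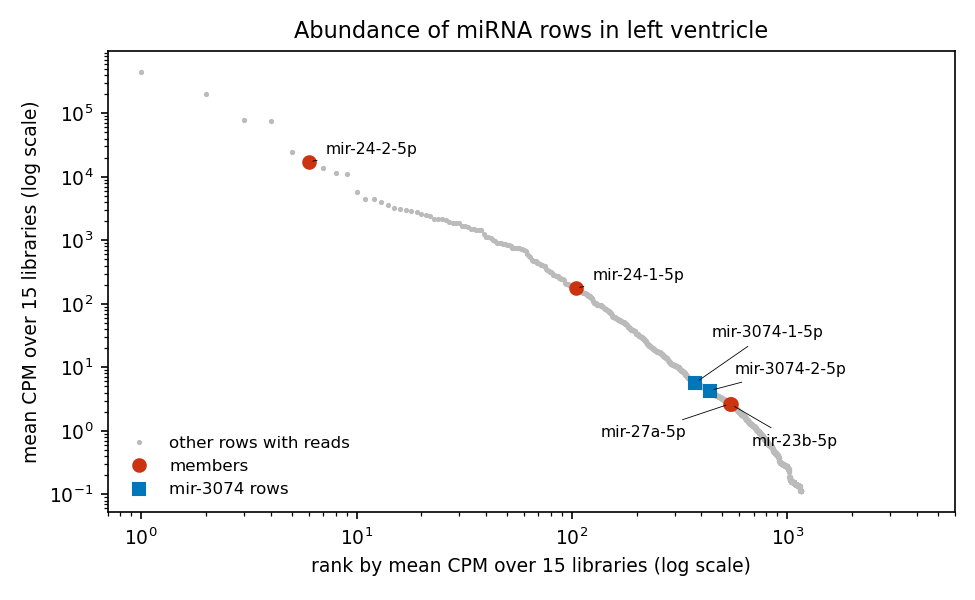
Mean CPM of each miRNA row with reads against its rank (both axes logarithmic, 15 libraries), with members as red circles and the mir-3074 rows of the opposite strand as blue squares. Mir-24-2-5p stands at rank 6 and mir-24-1-5p at rank 104, and the other members with reads have means of 2.61 and 2.66 CPM.

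Mir-24-2-5p was at 13037 CPM in wt mouse 1, 14196 in mouse 2, 16246 in mouse 3, 17734 in mouse 4 and 14884 in mouse 5. In AGAT-/- mice it was at 17858 CPM in mouse 6, 19298 in mouse 7, 18990 in mouse 8, 17132 in mouse 9 and 18074 in mouse 10. In AGAT-/-hArg mice it was at 17291 CPM in mouse 11, 16432 in mouse 12, 16412 in mouse 13, 21498 in mouse 14 and 17544 in mouse 15. The wt mice are the lowest except for mouse 4, which reaches into the range of both other groups, and AGAT-/-hArg mouse 14 is the highest of all 15. This overlap depends on the scaling. With total counts in place of TMM, mouse 4 was at 15838 CPM and the highest wt mouse, mouse 3, at 15913. Both were then below every mouse of the other groups, whose lowest were AGAT-/- mouse 9 at 16911 and AGAT-/-hArg mouse 12 at 17269. With DESeq2's size factors, wt mice 3 and 4 (16288 and 17761 CPM) were above AGAT-/-hArg mouse 12 (16003). As a share of a library's reads, mir-24-2-5p was lowest in wt mouse 1 at 1.34% (95% Clopper-Pearson interval 1.31 to 1.38) and highest in AGAT-/-hArg mouse 14 at 2.19% (2.14 to 2.23).

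Group means of mir-24-2-5p were 15219 ± 1823 CPM in wt, 18270 ± 877 in AGAT-/- and 17835 ± 2109 in AGAT-/-hArg mice (SD, n = 5 each). Its coefficient of variation between mice was 12.0% in wt, 4.80% in AGAT-/- and 11.8% in AGAT-/-hArg mice, where counting alone gives between 1.09% and 1.23%. Without mouse 14 the mean of the AGAT-/-hArg mice was 16920 CPM and their coefficient of variation 3.45%.

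Mir-24-1-5p, by name from the b cluster and with the same seed, was at 185 CPM in wt mouse 1, 123 in mouse 2, 185 in mouse 3, 205 in mouse 4 and 164 in mouse 5. In AGAT-/- mice it was at 176 CPM in mouse 6, 195 in mouse 7, 178 in mouse 8, 166 in mouse 9 and 199.9 in mouse 10. In AGAT-/-hArg mice it was at 179.8 CPM in mouse 11, 155 in mouse 12, 170.2 in mouse 13, 179 in mouse 14 and 178 in mouse 15. The groups overlap throughout, and wt mice hold both the lowest value, in mouse 2, and the highest, in mouse 4. Group means were 172 ± 31.3 CPM in wt, 183 ± 14.1 in AGAT-/- and 172 ± 10.5 in AGAT-/-hArg mice (SD, n = 5 each). The coefficient of variation between mice was 18.2% in wt, 7.69% in AGAT-/- and 6.06% in AGAT-/-hArg mice, where counting alone gives 11.6%, 10.96% and 11.04%. Without wt mouse 2 the value of wt mice was 8.94% (11.2% from counting), and without AGAT-/-hArg mouse 12 that of AGAT-/-hArg mice was 2.52%.

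Reads listed under mir-24-2-5p outnumbered those listed under mir-24-1-5p by 90.2 ± 16.4 to 1 in wt, 100.2 ± 6.12 to 1 in AGAT-/- and 103 ± 10.1 to 1 in AGAT-/-hArg mice (SD, n = 5 each). By name the former belongs to the a cluster and the latter to the b cluster. Whether this ratio is that of the clusters depends on the arm the reads come from, which was not tested. The ratio was lowest in wt mouse 1 at 70.3 and highest in AGAT-/-hArg mouse 14 at 120.01, and the group means differ by less than the spread between wt mice. Mir-24-1-5p made up 1.03 ± 0.138% of the reads of both rows (SD, n = 15). How the authors' counting treated reads that match both rows over the shared bases is not given in the sources used here, so a part of the lower row may come from the higher one, which was not tested.

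**Figure D2:**
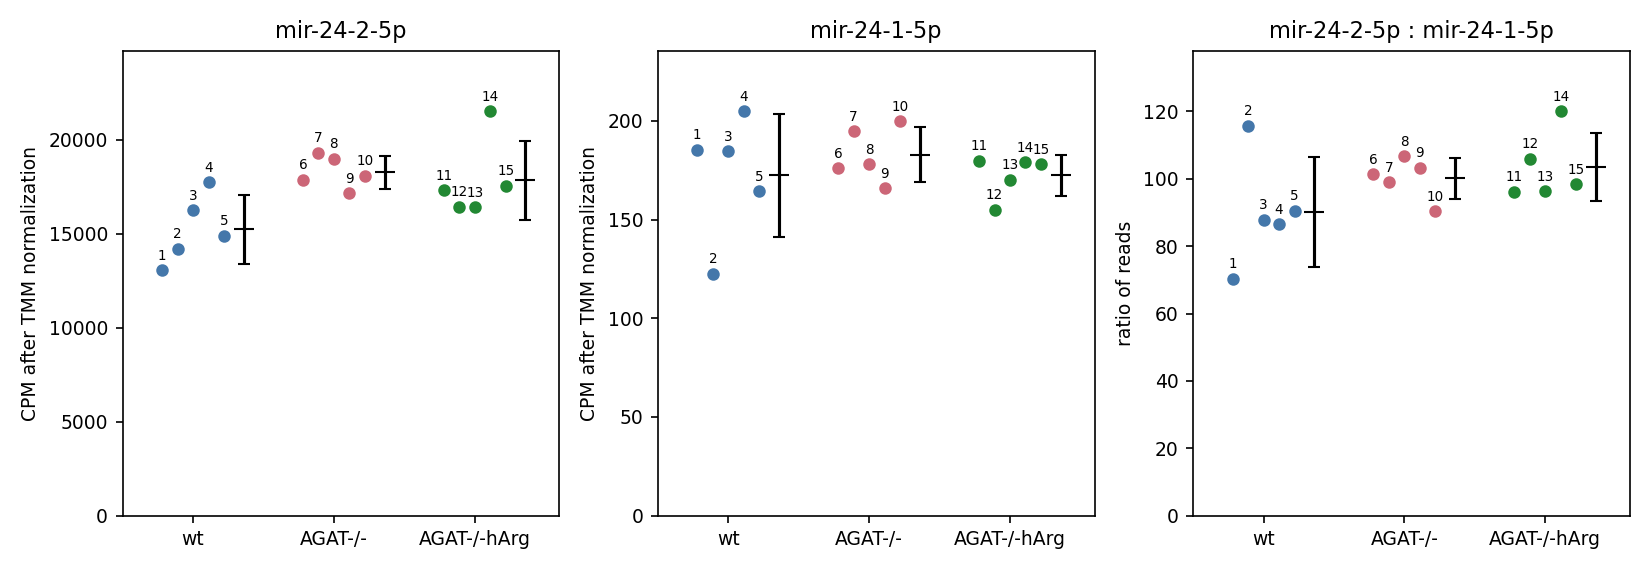
CPM of mir-24-2-5p (left) and mir-24-1-5p (middle) and the ratio of their reads (right) in each mouse, marked with its number, with the mean and SD of each group of 5 beside the points in black. For mir-24-2-5p after TMM normalization, 4 of the 5 wt mice lie below every AGAT-/- and AGAT-/-hArg mouse, while the groups overlap for mir-24-1-5p.

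Of the miR-23 and miR-27 rows, mir-23b-5p had 2, 0, 1, 0 and 2 reads in wt mice 1 to 5, 0, 2, 0, 1 and 2 in AGAT-/- mice 6 to 10, and 2, 0, 1, 2 and 3 in AGAT-/-hArg mice 11 to 15. Mir-27a-5p, from the cluster of mir-24-2, had 0, 2, 2, 2 and 3 reads in wt mice, 2, 2, 1, 0 and 0 in AGAT-/- mice and 1, 2, 0, 0 and 1 in AGAT-/-hArg mice. Every library is at or under the limit of 3 reads for both rows, and no difference between groups passed the FDR where these rows were tested. Mir-23a-5p, mir-23a-3p, mir-23b-3p, mir-27a-3p, mir-24-1-3p and mir-24-2-3p were listed at 0 in all 15 libraries.

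A listing at 0 was common in the deposited counts, where 292 of 918 rows of 3p arms and 380 of 918 rows of 5p arms held no read in any library. Among hairpins whose 5p row held more than 1000 reads in all, such as mir-24-1 and mir-24-2, the 3p row was at 0 for 18 of 55. The rows at 0 also include the 3p arms of mir-1a-1, mir-1a-2, mir-133a-1 and mir-133a-2, miRNAs by which cardiac muscle is known, whose 5p rows had 496, 139, 3289 and 3305 reads. The 0 of mir-24-3p, mir-27a-3p and mir-23a-3p is therefore given as a listing and not read as absence from the tissue, and the order of members is that of the rows with reads as named.

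Mir-3074 is read from the strand opposite mir-24, and its rows serve as neighbours. Mir-3074-2-3p lies opposite mir-24-2-5p over 20 bases and was listed at 0 in all 15 libraries, as was mir-3074-1-3p. Mir-3074-1-5p and mir-3074-2-5p, with identical mature sequences opposite mir-24-1-3p and mir-24-2-3p, had at most 5 and at most 4 reads in a library. None of the 2 tested mir-3074 rows differed in any comparison at an FDR of at most 0.05 or an unadjusted p below 0.05 in edgeR, DESeq2 or limma-voom (0 by each). Over all rows tested in edgeR, the FDR was passed by 2.14% (AGAT-/- against wt), 0.69% (AGAT-/-hArg against AGAT-/-) and 2.99% (AGAT-/-hArg against wt). An unadjusted p below 0.05 was found for 10.7%, 7.41% and 12.5% in that order, so 0 of 2 rows is near these shares.

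AGAT-/- mice were compared with wt mice to see how loss of AGAT bears on the members. Mir-24-2-5p was 1.18-fold as high in AGAT-/- as in wt mice (95% interval 1.06 to 1.32), which is 0.24 on the log2 scale (standard error 0.077). All 5 AGAT-/- mice were above the wt median of 14884 CPM and 4 of them above every wt mouse. In edgeR's quasi-likelihood test the unadjusted p was 0.00509 and the FDR after Benjamini-Hochberg adjustment over all rows tested was 0.143, so the difference did not pass the threshold of 0.05. Mir-24-1-5p was 1.05-fold as high (0.854 to 1.29; log2 0.07, FDR = 0.965, edgeR), a difference within the spread between mice. Mir-27a-5p had an FDR of 0.789 (edgeR) at the limit of counting, and mir-23b-5p had too few reads to be tested.

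Of the 10 members, 3 had more than 10 reads summed over the 10 libraries and were tested, and 0 passed the FDR in edgeR, where 12 of all 562 rows tested did (2.14%). At an unadjusted p below 0.05 there was 1 member, mir-24-2-5p, where 60 rows were (10.7%). DESeq2 and limma-voom called 0 members as well, with FDRs of 0.0918 and 0.0818 for mir-24-2-5p. Mir-24-2-5p passed with total counts in place of TMM (log2 fold change 0.30, FDR = 0.00570, edgeR) and with every row of at least 1 read tested (0.29, FDR = 0.00297, edgeR). Over all rows, 17 of 562 passed with total counts (14 higher and 3 lower, against 9 and 3 with TMM) and 18 of 1094 with at least 1 read. With total counts the median over all rows moved by 0.047. Mir-24-2-5p also passed without AGAT-/- mouse 6 (0.31, FDR = 0.0372, edgeR, 17 over all rows) and without wt mouse 4 (0.31, FDR = 0.00882, edgeR, 13 over all rows). With the labelled animal number as a covariate its log2 fold change was 0.19 (unadjusted p = 0.0820, FDR = 0.539, edgeR), the highest FDR over all settings. Except for mouse 6, every AGAT-/- mouse has a higher animal number than every wt mouse. This fit can therefore tell animal number and loss of AGAT apart only in part. Among the 42 rows with a mean of at least 1000 CPM, whose median log2 fold change was -0.03, 3 were at least as high as mir-24-2-5p and 6 at least as far from 0, itself included in both counts.

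**Figure D3:**
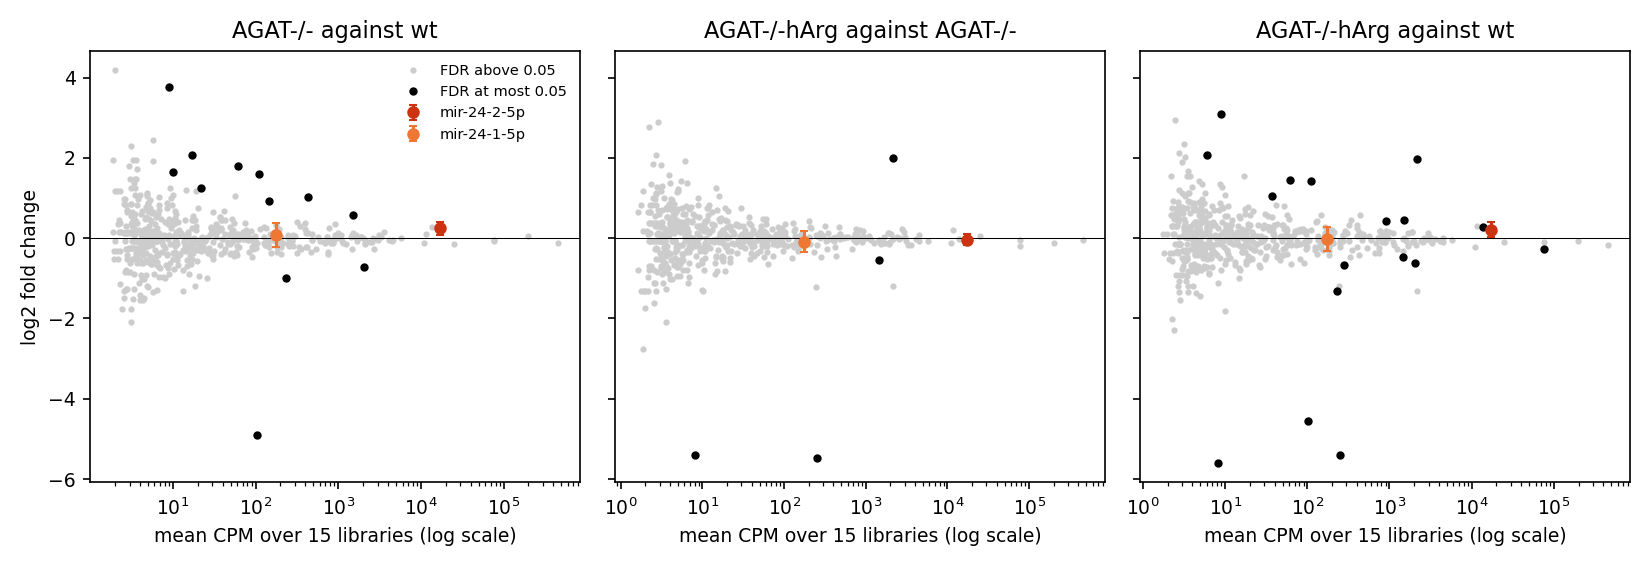
Log2 fold change of each row tested against its mean CPM (logarithmic axis) in the comparisons named above the panels, with rows at an FDR of at most 0.05 (edgeR) in black, and mir-24-2-5p (red) and mir-24-1-5p (orange) with 95% intervals. The interval of mir-24-2-5p lies above 0 against wt mice in both groups without AGAT, at fold changes of 0.24 and 0.22, while its FDR is above 0.05.

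AGAT-/-hArg mice were compared with AGAT-/- mice to see how homoarginine bears on the members. Mir-24-2-5p was 0.976-fold as high in AGAT-/-hArg as in AGAT-/- mice (95% interval 0.886 to 1.08), which is -0.03 on the log2 scale, with 0.068 as standard error and 0.964 as FDR (edgeR). Mir-24-1-5p was 0.941-fold as high (0.786 to 1.13; log2 -0.09, FDR = 0.949, edgeR), and mir-23b-5p had an FDR of 0.949 (edgeR) at the limit of counting. With total counts the log2 fold change of mir-24-2-5p turned to 0.03 (FDR = 0.912, edgeR). Of 3 members tested, 0 passed the FDR in edgeR, DESeq2 or limma-voom and, with all mice, 0 had an unadjusted p below 0.05 in any of them. Without AGAT-/-hArg mouse 14, the latter count was 1, as the log2 fold change of mir-24-2-5p was -0.12 with an unadjusted p of 0.0390 (FDR = 0.616, edgeR, the lowest over all settings). Over all 580 rows tested, 4 passed the FDR (0.69%) and 43 had an unadjusted p below 0.05 (7.41%).

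AGAT-/-hArg mice were also set beside wt mice, and this comparison shares the libraries of each group with 1 of those above. Mir-24-2-5p was 1.16-fold as high in AGAT-/-hArg as in wt mice (95% interval 1.03 to 1.31), which is 0.22 on the log2 scale (standard error 0.086). All 5 AGAT-/-hArg mice were above the wt median, and 1 of them, mouse 14, was above every wt mouse. The unadjusted p was 0.0210 and the FDR 0.263 in edgeR's test. Mir-24-1-5p was 0.990-fold as high (0.803 to 1.22), with an FDR of 0.975 (edgeR). Mir-23b-5p and mir-27a-5p had FDRs of 0.889 and 0.598 (edgeR) at the limit of counting.

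All 4 members with reads were tested against wt mice, and 0 passed the FDR in edgeR, where 17 of 569 rows did (2.99%), 9 higher and 8 lower. At an unadjusted p below 0.05 there was 1 member, again mir-24-2-5p, where 71 rows were (12.5%). Its unadjusted p was above 0.05 without wt mouse 1 (0.0559), wt mouse 5 (0.0542) or AGAT-/-hArg mouse 14 (0.114), and with the animal number as covariate (0.457, all edgeR). Without wt mouse 1, mir-27a-5p had an unadjusted p of 0.0467 (edgeR) at the limit of counting, with an FDR of 0.428. DESeq2 and limma-voom called 0 members, with FDRs of 0.190 and 0.228 for mir-24-2-5p. DESeq2 gave no FDR for mir-23b-5p and mir-27a-5p in this comparison. With total counts in place of TMM, mir-24-2-5p passed (log2 fold change 0.33, FDR = 0.00885, edgeR), while the median over all rows moved by 0.11 and the calls over all rows were 16 higher and 8 lower. With animal number as covariate they were 1 higher and 9 lower. Without mouse 14 its log2 fold change was 0.14 (FDR = 0.592, edgeR), and with the covariate 0.073 (FDR = 0.959, edgeR). Of the 42 rows with a mean of at least 1000 CPM, with a median of -0.07, 5 were at least as high as mir-24-2-5p and 12 at least as far from 0, itself included in both counts.

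**Figure D4:**
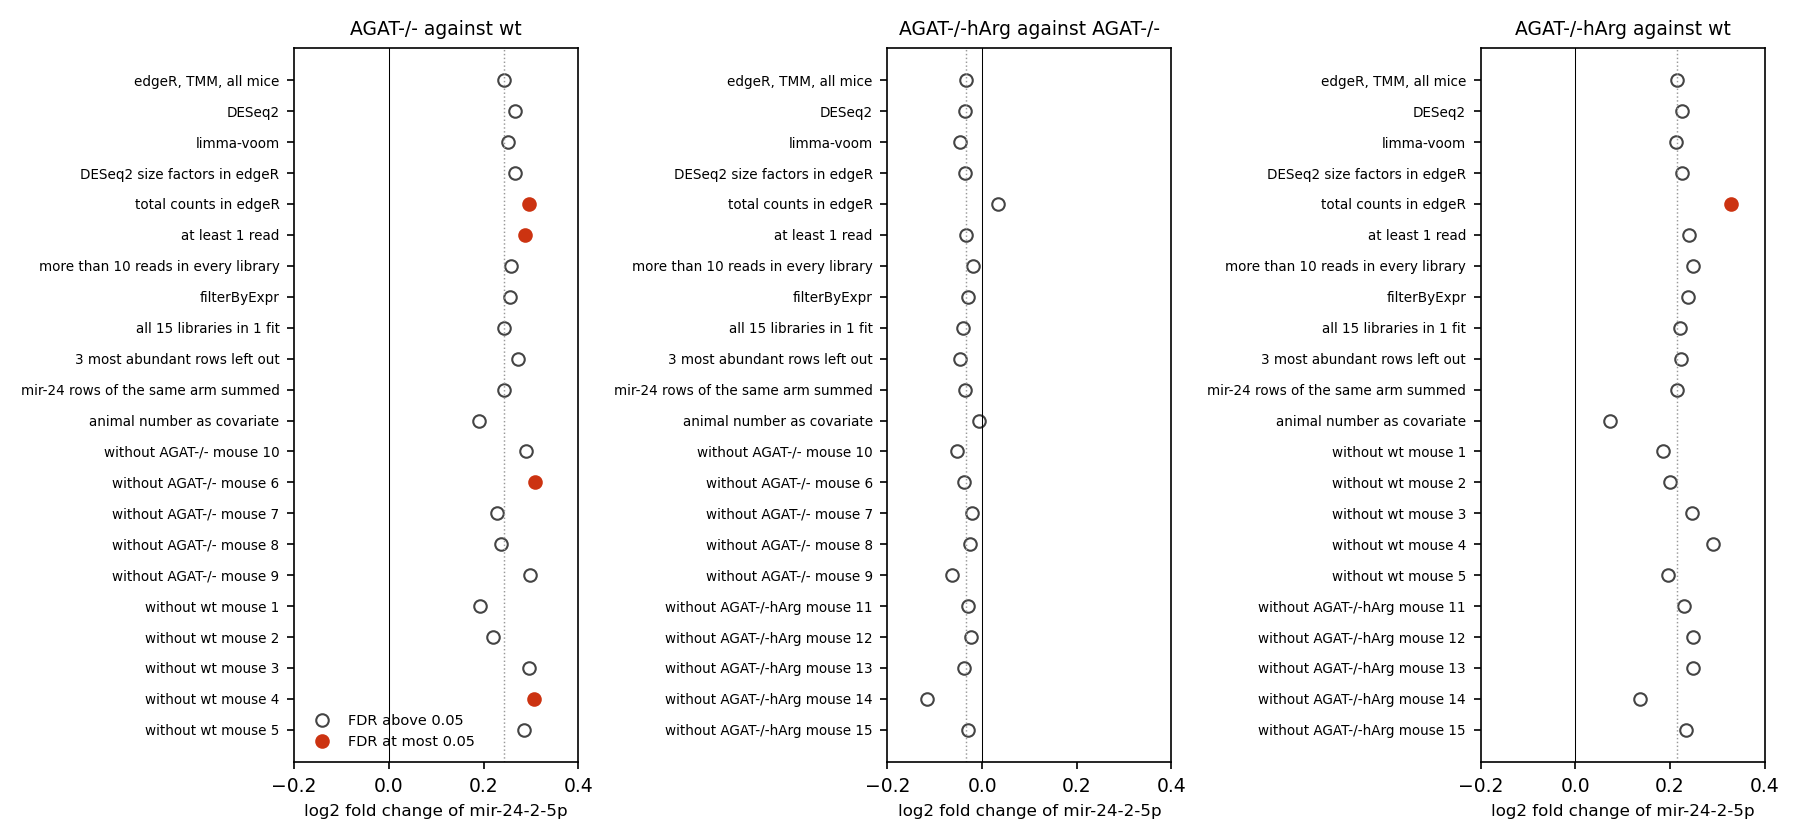
Log2 fold change of mir-24-2-5p in the comparisons named above the panels, under each way of fitting and with each mouse left out, with filled points at an FDR of at most 0.05 and the dotted line at the value of the edgeR test with all mice. The value lies between 0.19 and 0.31 for AGAT-/- against wt mice, and filled points occur at 4 settings there and at 1 for AGAT-/-hArg against wt mice.

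The other miRNAs known for roles in blood vessels and endothelial cells were taken from a list of rows of mir-126a, mir-126b, mir-221, mir-222, mir-92a, mir-130a, mir-132, mir-210, mir-218, mir-10a and mir-10b. Of its 24 rows, 16 had reads. Between AGAT-/- and wt mice, 13 were tested, 1 was higher and 0 were lower at the FDR (edgeR, 2.14% over all rows), with 3 at an unadjusted p below 0.05 (10.7% over all rows), and the median log2 fold change was 0.03, against -0.04 over all rows tested. The higher one was mir-130a-5p, whose log2 fold change was 1.26 (FDR = 0.0217, edgeR), from 12.7 ± 4.05 CPM in wt to 31.6 ± 6.20 CPM in AGAT-/- mice, with 21.5 ± 7.65 CPM in AGAT-/-hArg mice (SD, n = 5 each). Its FDR was above 0.05 without wt mouse 2 (1.17, FDR = 0.0776, edgeR), wt mouse 4 (1.14, FDR = 0.0523), AGAT-/- mouse 7 (1.16, FDR = 0.0701) or AGAT-/- mouse 8 (1.23, FDR = 0.0614), and highest with the animal number (1.29, FDR = 0.172). Limma-voom called this 1 row too, and DESeq2 called 2, mir-130a-5p and mir-210-5p. For AGAT-/-hArg against AGAT-/- mice, 0 of 14 passed (0.69% over all rows) and 1 had an unadjusted p below 0.05 (edgeR, 7.41% over all rows), with a median of -0.08 against 0.01 over all rows. DESeq2 and limma-voom called 0 of the 14 there, with 0 and 2 at an unadjusted p below 0.05. For AGAT-/-hArg against wt mice, 0 of 14 passed (2.99% over all rows) and 2 had an unadjusted p below 0.05 (edgeR, 12.5% over all rows), with a median of -0.05 against 0.01. Limma-voom called 0 of them and DESeq2 called 1, mir-210-5p, with 2 at an unadjusted p below 0.05 in each tool. DESeq2 gave no FDR for mir-130a-5p there. Mir-210-5p was at 269 ± 8.14 CPM in wt, 358 ± 39.3 in AGAT-/- and 339 ± 23.7 in AGAT-/-hArg mice (SD, n = 5 each).

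Levels of mir-24-2-5p over the 15 libraries were compared with those of 127 rows outside the clusters at a mean of at least 100 CPM by log2 CPM, as a description. The rows most like it were mir-125b-2-3p (Pearson r = 0.77, Spearman rho = 0.71), mir-31-5p (r = 0.73, rho = 0.67) and mir-871-3p (r = 0.69, rho = 0.75). Without wt mouse 1 and AGAT-/-hArg mouse 14, the libraries farthest from the median of mir-24-2-5p, r was 0.75, 0.79 and 0.55 in that order. After each group's mean was taken off, r was 0.50, 0.37 and 0.34, so that a part of the likeness is that between group means. Mir-125b-2-3p was at 11958 ± 1180 CPM in wt, 14665 ± 403 in AGAT-/- and 14515 ± 763 in AGAT-/-hArg mice (SD, n = 5 each). With mir-24-1-5p, the row of the same seed, r was 0.45 (rho = 0.41), 0.77 without the same 2 libraries, and again 0.45 after the group means were taken off. The rows named above were picked by r before group means were taken off, so the values left are not ranked against each other. Whether reads that match both mir-24 rows bear on their likeness was not tested.

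The levels of rows that mark cell types are set beside those of mir-24. Of 14 rows of cardiac muscle miRNAs, 8 had reads and 6 were listed at 0, namely the 3p rows of mir-1a, mir-133a, mir-208a and mir-208b. Their summed level was 1972 ± 111 CPM in wt, 2195 ± 297 in AGAT-/- and 2293 ± 166 in AGAT-/-hArg mice (SD, n = 5 each), led by mir-499-5p. It was 1789, 2079, 1980.05, 1983 and 2032 CPM in wt mice 1 to 5, 1900.07, 2616, 2379, 2101 and 1979.75 CPM in AGAT-/- mice 6 to 10, and 2317, 2370.07, 2007, 2336 and 2436 CPM in AGAT-/-hArg mice 11 to 15. Wt mice are mostly low, and mouse 7 is the highest. The endothelial mir-126a summed to 17.9 ± 8.45, 17.0 ± 8.94 and 14.7 ± 7.34 CPM in the same order, with at most 13 reads of mir-126a-3p in a library.

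For smooth muscle, mir-143 and mir-145a summed to between 9491 and 11859 CPM in wt mice, between 9855 and 13772 in AGAT-/- and between 10007 and 16783 in AGAT-/-hArg mice, nearly all of it mir-145a-3p, with mir-143-3p at 0. Red blood cell rows, led by mir-486a-5p, summed to 7002 ± 580, 7215 ± 562 and 7103 ± 476 CPM (SD, n = 5 each) in wt, AGAT-/- and AGAT-/-hArg mice, and 3 of 8 were at 0, among them both arms of mir-451a. White blood cell rows summed to 87.7 ± 26.6, 83.7 ± 10.5 and 60.7 ± 15.2 CPM, with mir-223-3p, mir-150-5p and mir-142a-5p at 0. For each list the ranges of the 3 groups overlap.

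Single rows of these lists were also tested between groups. Mir-499-5p rose in AGAT-/-hArg against wt mice (log2 fold change 0.43, FDR = 0.0129, edgeR), from 748 ± 67.2 to 1017 ± 87.1 CPM (SD, n = 5 each), the only one of 18 cell type rows tested to pass (2.99% over all rows), in DESeq2 and limma-voom too. Its FDR was above 0.05 without wt mouse 3 (0.41, FDR = 0.0501, edgeR), wt mouse 5 (0.39, FDR = 0.0651) or AGAT-/-hArg mouse 15 (0.40, FDR = 0.0554), and highest with the animal number (0.42, FDR = 0.114). In all, 4 of the 18 had an unadjusted p below 0.05 (edgeR, 12.5% over all rows), the others being mir-145a-3p (0.31, FDR = 0.217), mir-150-3p (-0.64, FDR = 0.300) and mir-486b-5p (FDR = 0.123, edgeR), the last with at most 5 reads in a library. Mir-499-3p, the other arm of mir-499, had a log2 fold change of 0.22 here (FDR = 0.785, edgeR). Between AGAT-/- and wt mice it was -0.05 (FDR = 0.972, edgeR).

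Between AGAT-/- and wt mice, 0 of 17 cell type rows passed in edgeR (2.14% over all rows), with mir-499-5p (0.36, FDR = 0.0647) and mir-1a-2-5p (0.74, FDR = 0.434) at an unadjusted p below 0.05 (10.7% over all rows), while DESeq2 and limma-voom each called mir-499-5p. Over all settings the FDR of mir-499-5p in this comparison lay between 0.00957 and 0.362. For AGAT-/-hArg against AGAT-/- mice, 0 of 20 passed in any of the 3 tools (0.69% over all rows in edgeR), with 2 at an unadjusted p below 0.05 in edgeR (7.41% over all rows) and 1 in each other tool. The part of cell type in the levels of mir-24-2-5p was not tested. In tissue of many cell types, fewer cells of a type and less RNA per cell cannot be told apart.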

How the data were processed

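The authors mapped reads against mouse miRBase with the CLC Genomics Workbench and deposited whole-number counts per mature miRNA and library, without normalization. The release, the mismatches allowed and the handling of reads that match several rows are not given in the sources used here. The submitters' processing notes name the build GRCm38. All 15 columns were used and assigned to groups by their labels. Groups of 5 mice were compared in pairs with edgeR 4.0.16 (R 4.3.3; TMM, glmQLFit, glmQLFTest) over rows whose reads in the libraries compared added to more than 10, at an FDR of at most 0.05. Standard errors were taken from the F statistic. Log2 CPM used a prior count of 1. Libraries of a group differed by more than sampling noise in all 30 pairs (2.61 to 17.5 for chi-square divided by its degrees of freedom). Alternatives were DESeq2 1.42.0, limma-voom (limma 3.58.1), DESeq2's size factors, total counts, other filters (a single read, over 10 reads in each library, filterByExpr), all 15 libraries in 1 fit, the 3 most abundant rows left out, mir-24 rows of an arm summed, animal number as a covariate, and each mouse left out. Every member is accounted for; values per mouse are given for the rows with reads. Animal numbers are mostly higher in AGAT-/- and AGAT-/-hArg mice than in wt mice, so this covariate cannot be fully told apart from group. Members and lists were chosen with earlier results of these data known. Summaries used Python 3.11.15 and scipy 1.17.1.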

Additional observations from a re-analysis of the deposited data

Results flagged for a closer look

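In 27 groups of 5 libraries (levels of mir-24-2-5p and mir-24-1-5p, their ratio, the sums of the cell type lists and total reads), 3 held a library far from the others, its gap to the nearest one exceeding 0.71 of the group's range. Chance flags about 1 in 20 groups. Mir-24-2-5p was at 21498 CPM in AGAT-/-hArg mouse 14, with a gap of 0.777 of the range. The red blood cell rows summed to 8184 CPM in AGAT-/- mouse 8 (0.724 of the range), and the cardiac muscle rows to 2007 CPM in AGAT-/-hArg mouse 13 (0.722 of the range). In mouse 14 the red blood cell sum was 7879 CPM and the cardiac muscle sum 2336 CPM.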

How the results depend on the processing

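For AGAT-/- against wt mice, 1 member passed the FDR with total counts (17 of 562 rows in all). With at least 1 read required, 1 member passed as well (18 of 1094 rows in all). The number of members ranged from 0 to 1 when mice were left out in turn, with 8 to 17 over all rows. For AGAT-/-hArg against wt mice it was 1 with total counts, where 24 of 569 rows passed.
Over all rows, 8 passed for AGAT-/-hArg against AGAT-/- mice with at least 1 read required and 2 with more than 10 reads in every library. For AGAT-/-hArg against wt mice, 28 passed with at least 1 read and 10 with the animal number as a covariate (1 higher, 9 lower), while leaving out mice in turn gave 10 to 20.
The log2 fold change of mir-24-2-5p kept its sign, except for AGAT-/-hArg against AGAT-/- mice with total counts (0.033). That of mir-24-1-5p, within 0.1 of 0 in each comparison, turned for AGAT-/- against wt mice to -0.0055 with the animal number as a covariate, and ranged from -0.033 to 0.14 when mice were left out in turn. For AGAT-/-hArg against wt mice it turned to 0.097 with total counts, 0.0097 with at least 1 read, 0.017 with more than 10 reads in every library and 0.0062 with filterByExpr, and lay between -0.11 and 0.066 with each mouse left out. The causes were not tested. With each mouse left out, the mean of mir-24-2-5p lay between 14591 and 15765 CPM in wt, between 18013 and 18555 in AGAT-/- and between 16920 and 18191 in AGAT-/-hArg mice, and the ratio of mir-24-2-5p to mir-24-1-5p, an alternative chosen after seeing the data, between 83.8 and 95.2, between 98.5 and 102.6 and between 99.2 and 105.2. The ratio of mir-23a and mir-27a to mir-23b and mir-27b rows was not run. The mir-23a rows, mir-23b-3p and mir-27a-3p were at 0, no mir-27b row was found, and mir-27a-5p and mir-23b-5p had only 18 reads each. No paired analysis was possible, since no mouse is shared between groups and the litters are not given in the sources used here. The settings for mir-130a-5p, mir-499-5p and the coefficients of variation were also chosen after seeing the data. Depth limits the rows at 3 reads or fewer.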
